A study of Mus musculus with 23 samples.

Results

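The report covers mouse epiblast-like cells without Wnt3 (KO) that were cultured with BMP4 and sampled as a time course. Its members were chosen by the array titles: Wnt3-/- cells with BMP4 at 12, 24 and 36 h, and the Wnt3-/- cells at 0 h as their start. They are 4 of the 23 arrays of the series. Beside them stand 3 arrays of KO cells without cytokine, 3 arrays of Wnt3+/+ (WT) cells with BMP4, and the WT start at 0 h.

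Gene expression was measured on Affymetrix Mouse Genome arrays in cells derived from male C57BL/6 embryonic stem cell lines. The series asked how the early epiblast responds to BMP4 and to WNT3A, with and without its own Wnt3. Each line, condition and time has a single array and hence no replicate, so precision is set by how few arrays there are.

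KO cells with BMP4 received 500 ng/ml BMP4 for 12, 24 or 36 h as floating aggregates. KO cells without cytokine were kept in the same serum replacement medium with LIF for the same times, and both share the KO array at 0 h as start. WT cells with BMP4 received the same dose at the same times. All lines carry Blimp1-mVenus (BV) transgenes, which mark cells that switch on Blimp1, the germ cell determinant. All were kept as stem cells in 2i and LIF and turned into epiblast-like cells with Activin A, bFGF and serum replacement on fibronectin before 0 h. With 1 line per genotype, effects of the line and of Wnt3 cannot be told apart. The labels do not give the deleted part of Wnt3, and its probe set read 16.2 at 0 h and 16.3, 17.3 and 13.6 at 12, 24 and 36 h in KO cells with BMP4, against 10.4 at 0 h and 19.0, 100.4 and 146 at 12, 24 and 36 h in WT cells with BMP4. The signals of the 4 KO arrays lie below the array median, but they do not check the deletion.

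BMP4 binds type I and type II serine-threonine kinase receptors, which phosphorylate SMAD1, SMAD5 and SMAD9. These enter the nucleus with SMAD4 and switch on genes such as the Id genes, the inhibitory Smad genes and Msx genes. In the mouse epiblast BMP4 comes from the extraembryonic ectoderm, is needed for mesoderm and germ cells, and blocks the neural fate. Wnt3 acts beside it in the epiblast and is needed for the primitive streak.

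The median signal of the 23 arrays lay between 36.8 and 41.4, and of the 4 arrays described here between 38.9 and 40.2. The ratio of 3' to 5' Gapdh probe sets, a measure of RNA length, lay between 1.09 and 1.57 on these 4 arrays and between 1.09 and 4.03 over the series. The Actb ratio lay between 6.59 and 7.67 on these 4 arrays and between 5.58 and 8.75 over the series. The Gapdh ratio was 2.68 on the array of KO cells without cytokine at 24 h. For the tests against untreated KO cells, counts without that array, or ranges that include leaving it out, are given below. Counts and shares of genes past 2-fold that use that array are given only with it. After quantile normalization of log2(signal + 16), 13256 genes passed a filter on dim signal. This scale understates the change of dim genes, and signals near the floor of 1 have no detection call.

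The marker genes fitted the label of the condition. Id1 read 5557, 8192 and 10156 with BMP4 at 12, 24 and 36 h, against 145, 177 and 224 without cytokine. Id4 read 169, 290.0 and 739 with BMP4, against 23.1, 32.7 and 22.5 without cytokine. Sox1, the earliest marker of the neural plate, read 31.3, 42.2 and 39.1 with BMP4, against 27.3, 169 and 588 without cytokine. Id1 and Id4 were higher with BMP4 at each time with no overlap, and Sox1 was lower from 24 h.

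At 0 h the cells carried the genes of the primed epiblast. Dnmt3b, a de novo DNA methyltransferase, read 11585 at 0 h, and the epiblast factors Pou3f1 and Otx2 read 4451 and 541. The naive factor Esrrb read 158 and Tfcp2l1 40.5, both above the median of that array, 38.9. Esrrb passed 2-fold below its 0 h value at 12 h with BMP4. Zfp42, another naive gene, had signal to lose, as it passed 2-fold below its 0 h value at 24 h with BMP4. The endoderm marker Foxa2 read 28.4, the streak marker Mixl1 13.5 and the trophoblast marker Cdx2 12.6, all below the median of the array. They do not stand for every marker of these types. The mesoderm gene Mesp1 later passed 2-fold below its 0 h value, at 36 h with BMP4, and the trophoblast gene Ascl2 did so at 24 h. Klf4, Elf5 and Tpbpa are not analysed here. In such bulk samples fewer cells of a type and less RNA per cell cannot be told apart.

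The order of change was read from the first time at which a gene stood at least 2-fold, or 1 log2 unit, above or below its value at 0 h. With 1 array per time this is a description with no test. In KO cells with BMP4, 631 genes passed 2-fold higher at any time (4.76% of 13256) and 481 passed 2-fold lower (3.63%). Of the 631 genes that went up, 130 did so first at 12 h, 226 at 24 h and 275 at 36 h. Of the 481 that went down, 146 did so first at 12 h, 206 at 24 h and 129 at 36 h. The largest class was that of 36 h on the up side and that of 24 h on the down side. On the up side this order turned with an offset of 1, which gave 213, 310 and 302 genes, and with a 1.5-fold threshold, which gave 609, 768 and 569. With an offset of 64 it was 58, 130 and 172 genes.

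Some changes did not last. Of the 130 genes up at 12 h, 21 were back within 2-fold at 36 h, and of the 226 up at 24 h, 79 were. On the down side 60 of 146 and 56 of 206 were back. KO cells without cytokine gave totals of 641 genes up and 563 down, and WT cells with BMP4 gave 1080 up and 1017 down. Both KO courses use the same 0 h array, so their totals share its error.

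The split between up and down depends on scaling. It was 631 up and 481 down here, 991 and 349 with the values as deposited, and 911 and 370 with median centring. The class at 36 h moved most, with 275 up and 129 down here, 493 and 76 as deposited, and 462 and 75 with median centring. At 36 h the median change of all genes was -0.02 log2 here, 0.14 as deposited and 0.12 with median centring. At 12 h the split was 130 and 146 here, 126 and 135 as deposited, and 123 and 138 with median centring.

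**Figure D1:**
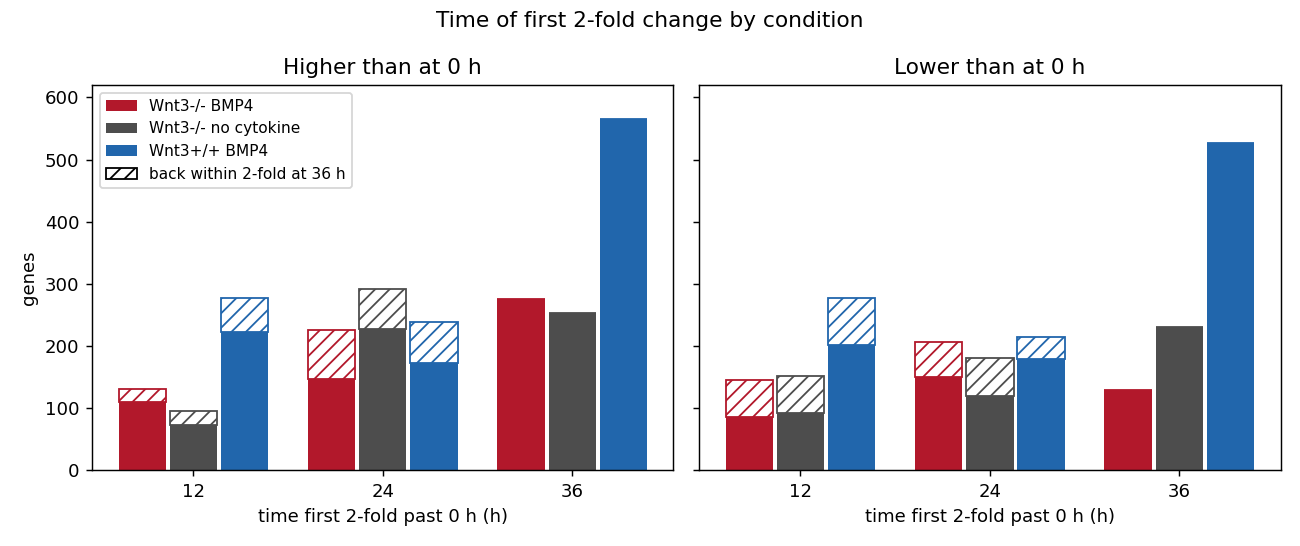
Number of genes (vertical axis) by the time at which they first passed 2-fold above (left) or below (right) 0 h, for KO cells with BMP4 (red), KO cells without cytokine (grey) and WT cells with BMP4 (blue), 1 array per time. Hatched parts are genes back within 2-fold at 36 h. In KO cells with BMP4 the up classes hold 130, 226 and 275 genes, and the class of WT cells with BMP4 at 36 h holds 565.

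Some of these genes also stood apart from untreated cells of the same time. Of the 130 genes first up at 12 h, 20 stood at least 2-fold above KO cells without cytokine at 12 h (0.264% of all genes did). The same held for 22 of 226 at 24 h (0.868% of all genes) and 17 of 275 at 36 h (0.868%). On the down side it held for 6 of 146 at 12 h, 19 of 206 at 24 h and 13 of 129 at 36 h, against 0.204%, 0.709% and 0.935% of all genes. Both sides of this choice use the same BMP4 array, so the higher shares among the classes are a description.

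All 4 measured Id genes were past 2-fold above 0 h at 12 h with BMP4. They code for inhibitors that keep bHLH transcription factors off DNA. Id1 read 197 at 0 h and 5557, 8192 and 10156 at 12, 24 and 36 h with BMP4, a change of 4.65 log2 by 12 h and 5.43 by 36 h. Most of its rise was in place at the first time, and all 3 BMP4 arrays stood far above the untreated ones. Id2 read 161 at 0 h and 1771, 3126 and 4012 at 12, 24 and 36 h with BMP4, against 128, 171 and 345 without cytokine at 12, 24 and 36 h. Its change was 3.32 log2 by 12 h and 4.34 by 36 h. Id3, already bright at the start, read 1067 at 0 h and 3104, 3769 and 4905 at 12, 24 and 36 h with BMP4, against 1541, 1734 and 1305 without cytokine. It passed 2-fold at 12 h with 1.48 log2 and stood at 2.04 at 36 h.

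Id4 was still climbing at 36 h. It read 26.9 at 0 h and 169, 290.0 and 739 at 12, 24 and 36 h with BMP4, changes of 2.20, 2.79 and 4.01 log2 from 0 h. Its fitted change between 12 and 36 h was 1.81 ± 0.38 log2 (adjusted p = 0.0391), and that of Id1 was 0.78 ± 0.36 log2 (adjusted p = 0.30). Only the change of Id4 passed the threshold, and whether the 2 changes differ was not tested. The call of Id4 held in 8 of 16 alternatives.

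To show the sequence before these genes, the 250 bases upstream of the RefSeq start (GRCm38.p6) are printed for the Id genes and Sox1 with an entry, 4 of 5 genes. Id1 had no entry. Capitals mark matches, on either strand, to GGCGCC, a GC-rich element bound by SMAD1 and SMAD5, and to the SMAD box letters GTCT and CAGAC. The last 2 overlap where CAGAC contains the reverse complement of GTCT. The Id2 window lies at chr12:25096093-25096342 on the minus strand, Id3 at chr4:136143572-136143821, Id4 at chr13:48260866-48261115 and Sox1 at chr8:12395269-12395518, these 3 on the plus strand.
Id2: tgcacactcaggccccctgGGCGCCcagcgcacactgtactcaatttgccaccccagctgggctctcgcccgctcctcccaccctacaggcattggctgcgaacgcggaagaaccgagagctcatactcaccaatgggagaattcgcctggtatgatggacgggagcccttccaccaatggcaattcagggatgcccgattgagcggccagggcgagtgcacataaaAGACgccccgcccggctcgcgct
Id3: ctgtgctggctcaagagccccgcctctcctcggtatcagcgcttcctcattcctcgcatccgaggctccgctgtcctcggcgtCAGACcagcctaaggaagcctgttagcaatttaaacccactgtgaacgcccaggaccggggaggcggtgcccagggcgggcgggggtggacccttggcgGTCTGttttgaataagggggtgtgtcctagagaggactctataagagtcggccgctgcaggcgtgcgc
Id4: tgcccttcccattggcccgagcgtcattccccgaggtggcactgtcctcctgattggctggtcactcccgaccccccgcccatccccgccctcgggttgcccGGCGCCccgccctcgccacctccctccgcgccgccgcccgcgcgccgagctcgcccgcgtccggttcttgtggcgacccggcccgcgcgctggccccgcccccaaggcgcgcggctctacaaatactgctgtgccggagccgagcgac
Sox1: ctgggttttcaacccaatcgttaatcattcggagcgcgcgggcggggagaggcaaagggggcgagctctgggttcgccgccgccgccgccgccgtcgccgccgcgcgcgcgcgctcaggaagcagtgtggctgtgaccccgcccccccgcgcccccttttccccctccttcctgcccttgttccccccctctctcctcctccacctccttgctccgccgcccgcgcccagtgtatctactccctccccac

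Positions count bases upstream of the start to the nearest base of a match. Id2 held 1 match to GGCGCC at 226 bases and 1 to GTCT at 20 bases. Id4 held 1 match to GGCGCC at 143 bases. Id3 held none of that motif but 2 matches each to GTCT and CAGAC, the nearest at 65 and 64 bases. The Sox1 window held none of the 3. Of 32841 promoter windows of the same length 9.59% held GGCGCC, 82.9% GTCT and 42.2% CAGAC. A match is a run of letters and not a bound site, and no match says only that these letters are not in this window.

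Of the inhibitory Smad genes, which feed back on the receptors, Smad6 was past 2-fold at 12 h and Smad7 was not. Smad6 read 68.1 at 0 h and 184, 217 and 333 at 12, 24 and 36 h with BMP4, against 42.5, 85.0 and 67.6 without cytokine at 12, 24 and 36 h. It stayed past 2-fold to 36 h. Smad7 read 300.2 at 0 h and 526, 617 and 541 at 12, 24 and 36 h with BMP4, against 229, 319.6 and 83.9 without cytokine. On the normalized scale Smad7 stayed just under 2-fold above 0 h, which held in 6 of 7 alternatives. The 2 conditions lay furthest apart at 36 h, where the untreated array was low. Bambi, a decoy receptor without a kinase domain, read 455 at 0 h and 491, 568 and 1201 at 12, 24 and 36 h with BMP4, against 329, 380.0 and 251 without cytokine. Bambi first passed 2-fold at 36 h.

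The homeobox factor genes Msx1 and Msx2 passed 2-fold at different times. Msx1 read 34.3 at 0 h and 103, 149 and 292 at 12, 24 and 36 h with BMP4, against 29.4, 46.5 and 53.1 without cytokine, and was past 2-fold at 12 h. Its relative Msx2 read 28.2 at 0 h and 34.3, 78.2 and 491 at 12, 24 and 36 h with BMP4, against 19.3, 23.4 and 24.1 without cytokine. Msx2 stood still at 12 h, was just past 2-fold at 24 h with 1.05 log2 and reached 3.36 at 36 h. Its fitted change between 12 and 36 h was 3.19 ± 0.31 log2 (adjusted p = 0.000546).

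Hey1, a repressor that both Notch and BMP switch on, read 71.5 at 0 h and 135, 181 and 369.6 at 12, 24 and 36 h with BMP4, against 79.3, 162 and 141 without cytokine. It passed 2-fold at 24 h with 1.10 log2, and the untreated array of 24 h was close to the treated one. Gata3 read 1.04 at 0 h and 13.2, 9.58 and 62.2 at 12, 24 and 36 h with BMP4, against 1.00, 1.00 and 6.63 without cytokine, with its early values near the floor. Gata2 read 58.5 at 0 h and 70.0, 83.3 and 138 at 12, 24 and 36 h with BMP4. On the normalized scale it stayed just under 2-fold, which held in 3 of 7 alternatives.

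In all, 10 of the 12 measured BMP-SMAD response genes passed 2-fold above 0 h, 6 at 12 h, 2 at 24 h and 2 at 36 h, and none passed below (4.76% and 3.63% of all genes did). Their median change was 1.06, 1.24 and 2.10 log2 at 12, 24 and 36 h, against 0.01, -0.04 and -0.02 for all genes. In KO cells without cytokine the median of the list at 36 h was 0.01. Smad9, Dlx5 and Atoh8 are not analysed here.

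**Figure D2:**
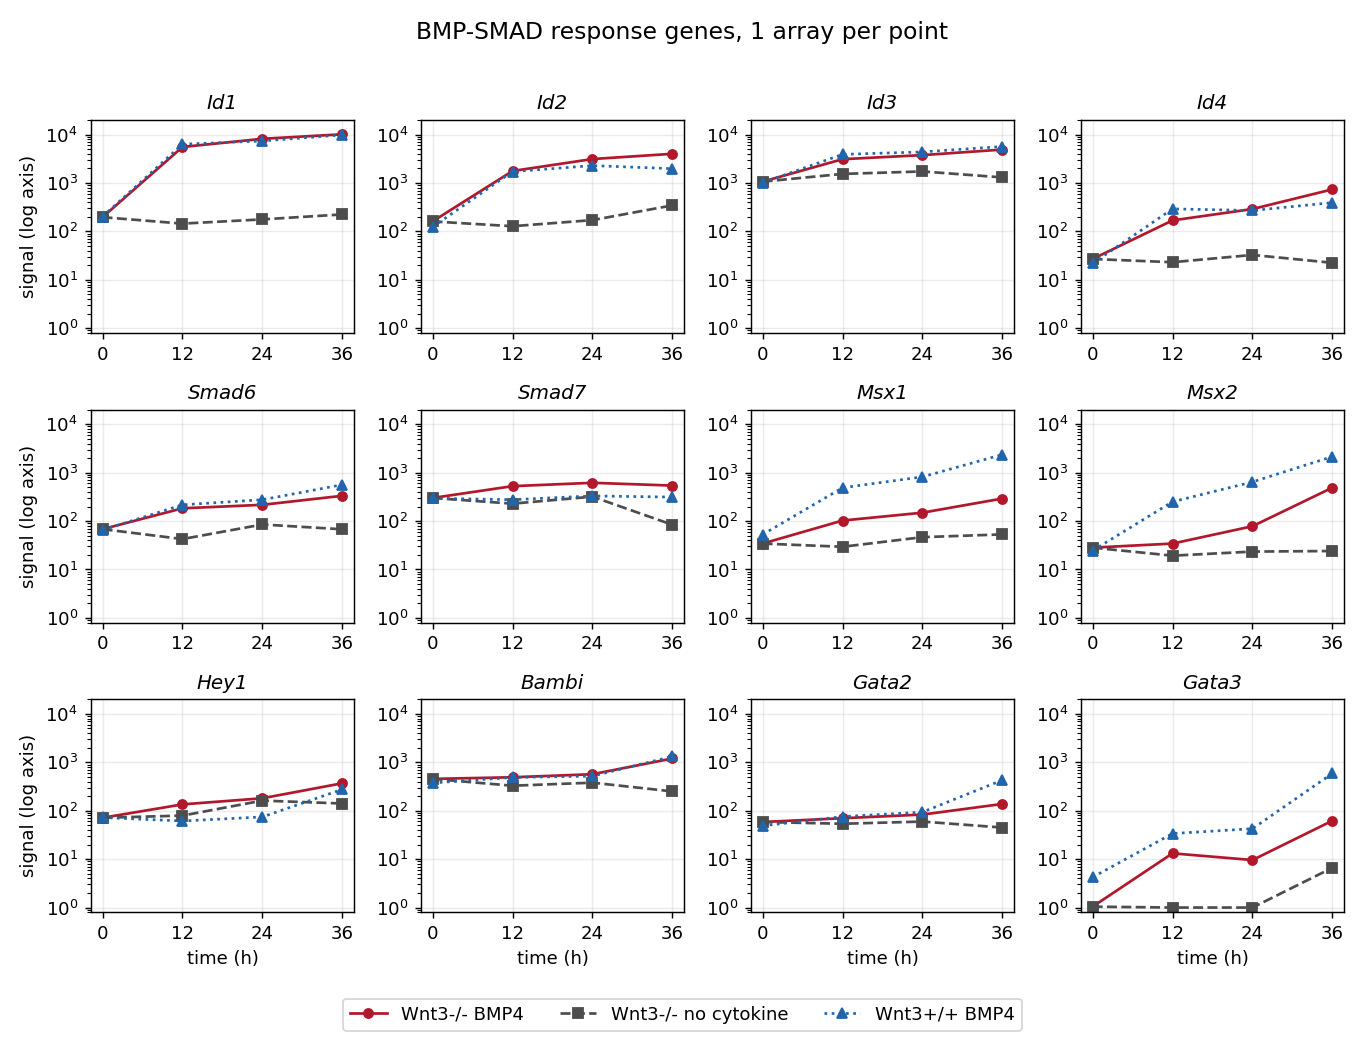
Signal (log axis) of 12 BMP-SMAD response genes against time in h, for KO cells with BMP4 (red circles), KO cells without cytokine (grey squares) and WT cells with BMP4 (blue triangles), each point 1 array. Both KO courses start from the same array. Id1, Id2 and Smad6 leave the untreated course by 12 h, and Msx2 and Bambi only later in KO cells.

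Of 17 measured BMP ligand, receptor, SMAD and antagonist genes, 1 passed 2-fold up and 2 passed 2-fold down in KO cells with BMP4. With 4.76% of all genes up and 3.63% down, these counts do not set the list apart. The type I receptor gene Bmpr1a read 704 at 0 h and 1160.1, 1911 and 1771 at 12, 24 and 36 h with BMP4, against 1121, 1370.0 and 1596 without cytokine, so it went up in both. Gdf3, a ligand of the TGF-beta family, read 2006 at 0 h and 1261, 568 and 249 at 12, 24 and 36 h, and the activin and BMP antagonist Fst read 171 at 0 h and 111, 129.8 and 78.2 at 12, 24 and 36 h. None of the 17 was called between KO cells with BMP4 and without at 12 or 36 h. Bmp4 itself read 81.0 at 0 h and 63.6, 46.9 and 63.1 at 12, 24 and 36 h in KO cells with BMP4, against 72.5 at 0 h and 95.0, 70.5 and 2419 at 12, 24 and 36 h in WT cells with BMP4. Its high signal was on 1 array, that of WT cells at 36 h. The difference in its course was -4.33 ± 1.26 log2 (adjusted p = 0.122) and did not pass. Bmp2, Bmp5, Bmp8b and Nog are not analysed here.

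Change between 12 and 36 h was tested with a line fitted for each condition over 21 arrays. The spread is that of all conditions about their lines, with 6 residual degrees of freedom, and errors are standard errors of the fit. P-values thus set a difference against departures from straight courses within 1 series of cultures, not against replicate cultures. In KO cells with BMP4, 185 genes changed, of which 94 rose (0.709% of genes tested) and 91 fell (0.686%). With values as deposited 269 rose and 66 fell, and with median centring 262 rose and 68 fell. The count also rests on single arrays: it was 1 without the BMP4 array of 12 h, 136 without that of 24 h and 0 without that of 36 h. Leaving out an end leaves 2 times to carry the line.

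Outside the BMP list, some of the largest genes first up at 12 h went up without cytokine too. Cda, cytidine deaminase, read 101 at 0 h and 917, 1218 and 1992 at 12, 24 and 36 h with BMP4, against 739, 1351 and 1075 without cytokine. Dsp, the desmosome plaque protein desmoplakin, read 86.2 at 0 h and 383, 626 and 1342 at 12, 24 and 36 h with BMP4, against 244, 592 and 815 without cytokine. Its fitted change after 12 h was 1.54 ± 0.25 log2 (adjusted p = 0.0148). Parvb stood apart from the untreated course. It codes for an actin-binding partner of integrin-linked kinase. Parvb read 59.7 at 0 h and 335, 478 and 936 at 12, 24 and 36 h with BMP4, against 91.8, 137 and 239 without cytokine, and its 3 treated values lay above all 3 untreated ones.

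The largest genes first up at 24 h were Msx2, Slc39a8 and Chrna4. Slc39a8, a zinc transporter gene, read 29.0 at 0 h and 54.9, 208 and 491 at 12, 24 and 36 h with BMP4, against 52.0, 209 and 388 without cytokine. It rose by 2.69 ± 0.24 log2 (adjusted p = 0.000392) between 12 and 36 h. Chrna4, a nicotinic receptor subunit, read 51.6 at 0 h and 79.9, 226 and 600.5 at 12, 24 and 36 h with BMP4, against 106, 322 and 431 without cytokine, and rose by 2.52 ± 0.26 log2 (adjusted p = 0.000672). Both ran close to the untreated course. Zfp521, a zinc finger gene tied to neural differentiation of stem cells, did the same with 74.5, 204 and 362, against 76.1, 217 and 383 without cytokine.

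At 36 h further developmental genes passed 2-fold for the first time. Hand1, a bHLH factor of extraembryonic and lateral mesoderm, read 18.9 at 0 h and 16.8, 23.6 and 148 at 12, 24 and 36 h with BMP4, against 26.0, 27.1 and 15.2 without cytokine. Efna1, an ephrin ligand, read 29.0 at 0 h and 41.6, 43.7 and 231 at 12, 24 and 36 h with BMP4, against 26.2, 42.2 and 37.5 without cytokine. The growth factor receptor gene Fgfr3 read 17.1 at 0 h and 21.4, 51.6 and 151 at 12, 24 and 36 h with BMP4, against 27.1, 21.9 and 50.6 without cytokine. In each the BMP4 array of 36 h stood alone at the top. Of these Fgfr3 rose after 12 h by 2.06 ± 0.31 log2 (adjusted p = 0.00902), and Hand1 (2.22 ± 0.69 log2, adjusted p = 0.141) and Efna1 (1.96 ± 0.46 log2, adjusted p = 0.0655) did not pass.

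A few genes went up and came back. Robo3, an axon guidance receptor gene, read 15.8 at 0 h and 86.2, 25.8 and 24.4 at 12, 24 and 36 h with BMP4, so that 12 h stood alone. Pcdh8, a protocadherin gene, read 81.6 at 0 h and 296, 242 and 121 at 12, 24 and 36 h, and the ecto-nucleotidase gene Nt5e read 36.5 at 0 h and 138, 120.3 and 51.6 at 12, 24 and 36 h. Nt5e fell (-1.30 ± 0.24 log2, adjusted p = 0.0232) between 12 and 36 h. Rest, a repressor of neuronal genes, read 849 at 0 h and 2385, 2759 and 1872 at 12, 24 and 36 h with BMP4, against 1176, 936 and 1089.9 without cytokine. The return of Rest depends on scaling: its change at 36 h was 0.94 log2 here, 1.13 as deposited and 1.10 with median centring. Its mean over the 3 times was higher with BMP4 by 1.12 ± 0.15 log2 (adjusted p = 0.00247).

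Among the 146 genes first down at 12 h were the immediate early genes Egr1 and Fos. Egr1, an ERK-driven transcription factor gene, read 1641 at 0 h and 87.4, 207 and 91.1 at 12, 24 and 36 h with BMP4, against 81.6, 261 and 224 without cytokine at 12, 24 and 36 h. Fos, part of the AP-1 factor, read 671 at 0 h and 52.0, 73.0 and 62.2 at 12, 24 and 36 h with BMP4, against 30.9, 53.4 and 52.7 without cytokine. Both were at their low level by 12 h in either condition. The 0 h signal of Fos was 671 in KO cells and 44.0 in WT cells, so the start differed between the lines. Of 20 measured FGF-ERK ligand and feedback genes, 5 passed 2-fold down at 12 h, 1 at 24 h and 1 at 36 h, and 2 passed up (3.63% and 4.76% of all genes did). The median change of this list at 36 h was -0.55 log2 with BMP4 and -0.59 without cytokine.

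Dnmt3l, a cofactor of de novo DNA methylation, was also down by 12 h. It read 1017 at 0 h and 345, 128 and 76.1 at 12, 24 and 36 h with BMP4, against 300.2, 115 and 46.5 without cytokine. It fell further between 12 and 36 h (-2.16 ± 0.24 log2, adjusted p = 0.00133). The X-linked homeobox gene Rhox5 read 2684 at 0 h and 1121, 198 and 105 at 12, 24 and 36 h with BMP4, against 917, 304 and 88.6 without cytokine, and fell (-3.43 ± 0.34 log2, adjusted p = 0.000672). Of the 7 measured genes of DNA methylation and demethylation enzymes, Dnmt3l and Dnmt3a fell (0.686% of all genes did). Dnmt3a read 4299.6 at 0 h and 3591, 2210.3 and 1758 at 12, 24 and 36 h with BMP4, and its fitted change was -1.17 ± 0.24 log2 (adjusted p = 0.0355). The call of Dnmt3a held in 8 of 16 alternatives. Dnmt3b stayed near its start with 11268, 11994 and 11268 with BMP4.

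The developmental pluripotency genes Dppa4 and Dppa2 passed 2-fold down at 24 h. Dppa4 read 5043 at 0 h and 3327, 1038 and 322 at 12, 24 and 36 h with BMP4, against 3421, 955 and 175 without cytokine. Its partner Dppa2 read 2062 at 0 h and 1596, 714 and 133 at 12, 24 and 36 h with BMP4, against 1428, 413 and 68.1 without cytokine. Both were higher with BMP4 than without at 36 h by amounts that did not pass. Between 12 and 36 h Dppa2 fell (-3.63 ± 0.29 log2, adjusted p = 0.000237), as did Dppa4 (-3.55 ± 0.30 log2, adjusted p = 0.00029). Of 18 measured naive and core pluripotency genes 4 fell and none rose (0.686% and 0.709% of all genes did). The other 2 that fell were Dppa5a (-1.57 ± 0.22 log2, adjusted p = 0.00552) and Zfp42 (-1.08 ± 0.22 log2, adjusted p = 0.0329). The call of Zfp42 held in 9 of 16 alternatives, and was lost with values as deposited and with median centring.

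The core pluripotency genes Pou5f1 and Nanog did not follow them. Pou5f1, which codes for OCT4, read 9027 at 0 h and 9345, 8780.0 and 9345 at 12, 24 and 36 h with BMP4, level over all 4 arrays. Nanog read 218 at 0 h and 1201, 1783 and 1509.7 at 12, 24 and 36 h with BMP4, against 1067, 1168 and 2006 without cytokine, up at 12 h in both. Esrrb read 158 at 0 h and 59.7, 39.4 and 61.4 at 12, 24 and 36 h with BMP4 and was below 0 h at every time. Among primed epiblast genes Fgf5 read 689.8 at 0 h and 648, 714 and 292 at 12, 24 and 36 h with BMP4, against 1144, 1585 and 2019.8 without cytokine. Its signal was lowest at 36 h with BMP4 and highest at 36 h without, a difference of -2.62 ± 0.58 log2 (adjusted p = 0.0744) that did not pass.

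Of 14 measured germline genes 5 fell between 12 and 36 h, none rose and 9 did not pass, where 0.686% of all genes fell. Mael, a piRNA pathway gene, read 584 at 0 h and 388, 175 and 52.7 at 12, 24 and 36 h with BMP4, against 455, 159 and 15.2 without cytokine, and fell (-2.73 ± 0.38 log2, adjusted p = 0.00537). Sycp3, of the synaptonemal complex, fell (-2.20 ± 0.31 log2, adjusted p = 0.00537), as did Dppa3 (-1.60 ± 0.29 log2, adjusted p = 0.0192). Ddx4, the vasa helicase gene, read 367 at 0 h and 311, 254 and 151 at 12, 24 and 36 h with BMP4 and fell (-1.21 ± 0.22 log2, adjusted p = 0.0211). Stk31, a kinase gene of the germline, read 68.1 at 0 h and 67.2, 37.3 and 6.02 at 12, 24 and 36 h and fell (-1.93 ± 0.31 log2, adjusted p = 0.0124), and both passed 2-fold only at 36 h. The germ cell determinant Prdm1, also called Blimp1, read 55.7, 64.9 and 37.5 in KO cells with BMP4 at 12, 24 and 36 h, against 57.3, 88.0 and 215 in WT cells with BMP4. Prdm14 read 5.10, 4.69 and 6.06 in KO cells, against 10.1, 6.45 and 249 in WT cells. Both were highest on the WT array of 36 h.

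**Figure D3:**
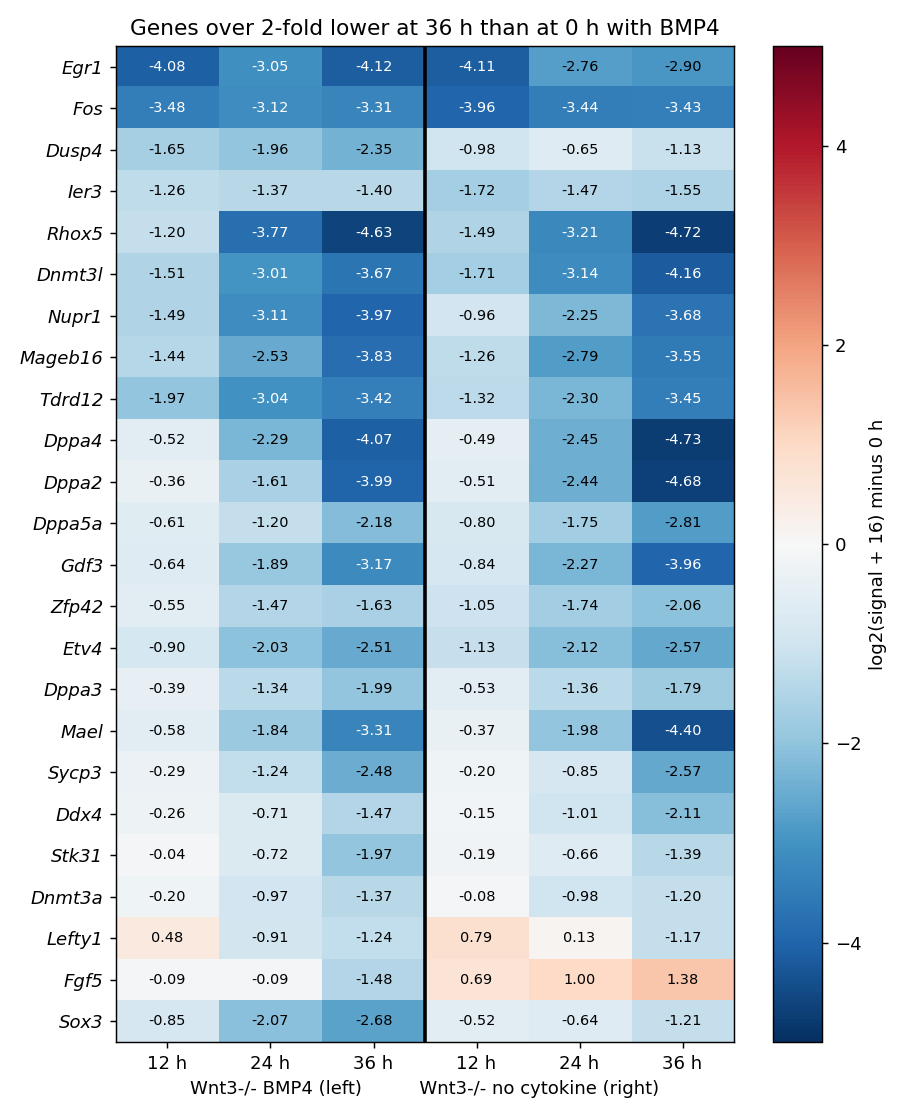
Change of log2(signal + 16) from 0 h (colour and printed value) for 24 genes at 12, 24 and 36 h, in KO cells with BMP4 (left 3 columns) and KO cells without cytokine (right 3 columns). Both sides use the same 0 h array. Egr1 and Fos are down by over 3 log2 at 12 h on both sides, and Fgf5 is down at 36 h on the left and up on the right.

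The Nodal antagonist gene Lefty1 and the ETS factor genes Etv4 and Etv5 also fell. Lefty1 read 4096 at 0 h and 5518, 2210.3 and 1833 at 12, 24 and 36 h with BMP4, above its start at 12 h, and fell (-1.72 ± 0.34 log2, adjusted p = 0.0308), a call that held in 10 of 16 alternatives. Etv4 fell (-1.61 ± 0.17 log2, adjusted p = 0.00115), as did Etv5 (-0.99 ± 0.15 log2, adjusted p = 0.0106), both targets of FGF signalling. Among 19 measured glycolysis and hypoxia genes, only the glucose transporter gene Slc2a3 rose (0.709% of all genes did). Slc2a3 read 2557 at 0 h and 3169, 6081 and 7486 at 12, 24 and 36 h. It had a fitted change of 1.16 ± 0.15 log2 (adjusted p = 0.00432). Ddit4, a hypoxia and stress gene, went down to 207 at 12 h and was at 605 at 36 h, against 891 at 0 h. Of 22 cell cycle genes none passed the test.

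The comparison with untreated KO cells asked which of these changes belong to BMP4 rather than to time in aggregates. At 12 h 6 genes differed, of which 3 were higher with BMP4 (0.0226% of genes tested) and 3 lower (0.0226%). The 3 higher genes were Id1 (5.15 ± 0.33 log2, adjusted p = 1.75e-05), Id2 (3.82 ± 0.23 log2, adjusted p = 1.75e-05) and Parvb (1.73 ± 0.25 log2, adjusted p = 0.0427). The 3 lower ones were Irs4, Dcn and Lhpp. Leaving out the BMP4 array of 12 h removed all 6 calls, and leaving out any other array of these 2 conditions left 2 to 4. With values as deposited, and with median centring, 2 genes were higher and none lower. Of 19 alternatives the call held in 18 for Id2, 17 for Id1, 9 for Lhpp, 8 for Dcn and 6 each for Irs4 and Parvb.

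Dcn and Irs4 were lower with BMP4 at every time. Dcn, which codes for the matrix proteoglycan decorin, read 355 at 0 h and 41.4, 43.4 and 32.2 at 12, 24 and 36 h with BMP4, against 142, 236 and 322 without cytokine. The fitted difference was -1.53 ± 0.21 log2 (adjusted p = 0.0323) at 12 h and -2.75 ± 0.21 log2 (adjusted p = 6.2e-05) at 36 h. Irs4, an adaptor of the insulin receptor, read 76.1, 95.0 and 69.6 with BMP4, against 256, 322 and 393 without cytokine, and 159.8 at 0 h. Lhpp, a phosphatase gene, read 580.0 at 0 h and 214, 159.8 and 124 at 12, 24 and 36 h with BMP4, against 458, 609 and 488 without cytokine, and was lower (-1.16 ± 0.16 log2, adjusted p = 0.0323) at 12 h. Of 14 matrix genes Dcn alone differed, lower at 12 h and at 36 h, as 0.0226% and 0.407% of all genes were.

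By 36 h 100 genes differed, 46 higher with BMP4 (0.347% of genes tested) and 54 lower (0.407%). With values as deposited 53 were higher and 44 lower. Without the untreated array of 24 h, the one with the high Gapdh ratio, 92 were called. Without the BMP4 array of 36 h 1 gene was called, and without the untreated array of 36 h 6 were. Of the 12 BMP-SMAD genes 8 were higher at 36 h and none lower, with a median difference of 1.87 log2, against 0.01 for all genes. They were Id1 (5.47 ± 0.33 log2, adjusted p = 1.75e-05), Id2, Id3, Id4 (3.96 ± 0.35 log2, adjusted p = 0.000126), Smad6 (1.64 ± 0.27 log2, adjusted p = 0.0144), Smad7 (2.05 ± 0.39 log2, adjusted p = 0.0329), Msx2 (3.25 ± 0.28 log2, adjusted p = 0.000122) and Bambi (1.86 ± 0.27 log2, adjusted p = 0.00593). Id3 was higher by 1.82 ± 0.20 log2 (adjusted p = 0.000628). Msx1, at 1.88 ± 0.40 log2 (adjusted p = 0.0625), did not pass at 36 h.

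The lower side included Sox1, which the untreated cells switched on. Sox1 was at 39.1 with BMP4 at 36 h, against 588 without cytokine, and lower (-3.44 ± 0.24 log2, adjusted p = 2.83e-05). The BMP4 values of Sox1 stayed between 31.3 and 42.2, around its 0 h value of 34.3. Zeb2, a SMAD-binding repressor expressed in neural cells, read 10.7, 15.1 and 16.9 with BMP4, against 13.7, 53.8 and 186 without cytokine. It was lower (-2.54 ± 0.27 log2, adjusted p = 0.000562), a call that held in 16 of 19 alternatives, with estimates from -3.36 to -0.58. Greb1l read 113, 137 and 207 with BMP4, against 282, 622 and 1663 without cytokine, and was lower (-2.99 ± 0.25 log2, adjusted p = 0.00010). Rgma, a BMP co-receptor of the repulsive guidance family, read 24.1, 19.4 and 27.7 with BMP4, against 28.4, 109.9 and 190.0 without cytokine. In each of these the untreated signal climbed over time and the treated one stayed low or climbed less.

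Other lower genes code for receptors and transporters. Kit, the receptor for stem cell factor, read 263, 296 and 309 with BMP4, against 474, 776 and 996 without cytokine, with no overlap, and was lower (-1.77 ± 0.22 log2, adjusted p = 0.00223). Slc2a1, the glucose transporter GLUT1, read 2998, 2721 and 3397 with BMP4, against 6517, 8192 and 8903 without cytokine. It was lower (-1.52 ± 0.20 log2, adjusted p = 0.00319). Ror1, a receptor for WNT5A, was lower (-1.97 ± 0.20 log2, adjusted p = 0.000441). Ptch1, the Hedgehog receptor, read 484, 498 and 331 with BMP4, against 1136, 1351 and 982 without cytokine, and was lower (-1.64 ± 0.32 log2, adjusted p = 0.0391).

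The higher side held genes that stayed up with BMP4 while they went down without it. Olig1, a bHLH factor known from glial progenitors, read 1552, 1428 and 2195 with BMP4, against 592, 491 and 154 without cytokine, and 568 at 0 h. Olig2 read 704, 471 and 549 with BMP4, against 244, 163 and 39.9 without cytokine, and 298 at 0 h. At 36 h Olig1 was higher by 3.33 ± 0.33 log2 (adjusted p = 0.000347) and Olig2 by 2.89 ± 0.42 log2 (adjusted p = 0.00623). Dusp9, an ERK phosphatase gene, read 3492, 2557 and 3236 with BMP4, against 1596, 1046 and 396 without cytokine, and was higher by 2.73 ± 0.22 log2 (adjusted p = 8.45e-05). Tdgf1, the Nodal co-receptor, read 8719, 9476 and 7332 with BMP4, against 5518, 5221 and 1872 without cytokine, and was higher by 1.83 ± 0.19 log2 (adjusted p = 0.000607). In all 4 the untreated array of 36 h was the lowest.

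Others went up with BMP4 and little or not at all without it. Cpm, carboxypeptidase M, read 300.2, 439.6 and 609 with BMP4, against 94.4, 79.3 and 48.8 without cytokine, and was higher by 3.07 ± 0.41 log2 (adjusted p = 0.00372). Coch, the matrix protein cochlin, read 169, 391 and 630.3 with BMP4, against 55.3, 73.5 and 58.1 without cytokine, and was higher by 2.95 ± 0.25 log2 (adjusted p = 0.000122). Nrp2, a co-receptor of semaphorins, read 31.6, 85.6 and 218 with BMP4, against 17.5, 14.8 and 20.8 without cytokine, and was higher by 2.58 ± 0.26 log2 (adjusted p = 0.000419). Dusp5, another ERK phosphatase gene, was higher at 36 h by 1.73 ± 0.26 log2 (adjusted p = 0.00691) and first passed 2-fold above 0 h at 24 h. The interferon-induced membrane protein gene Ifitm3 was higher at 36 h by 1.40 ± 0.15 log2 (adjusted p = 0.000628). Ifitm3 did not pass 2-fold above 0 h with BMP4.

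**Figure D4:**
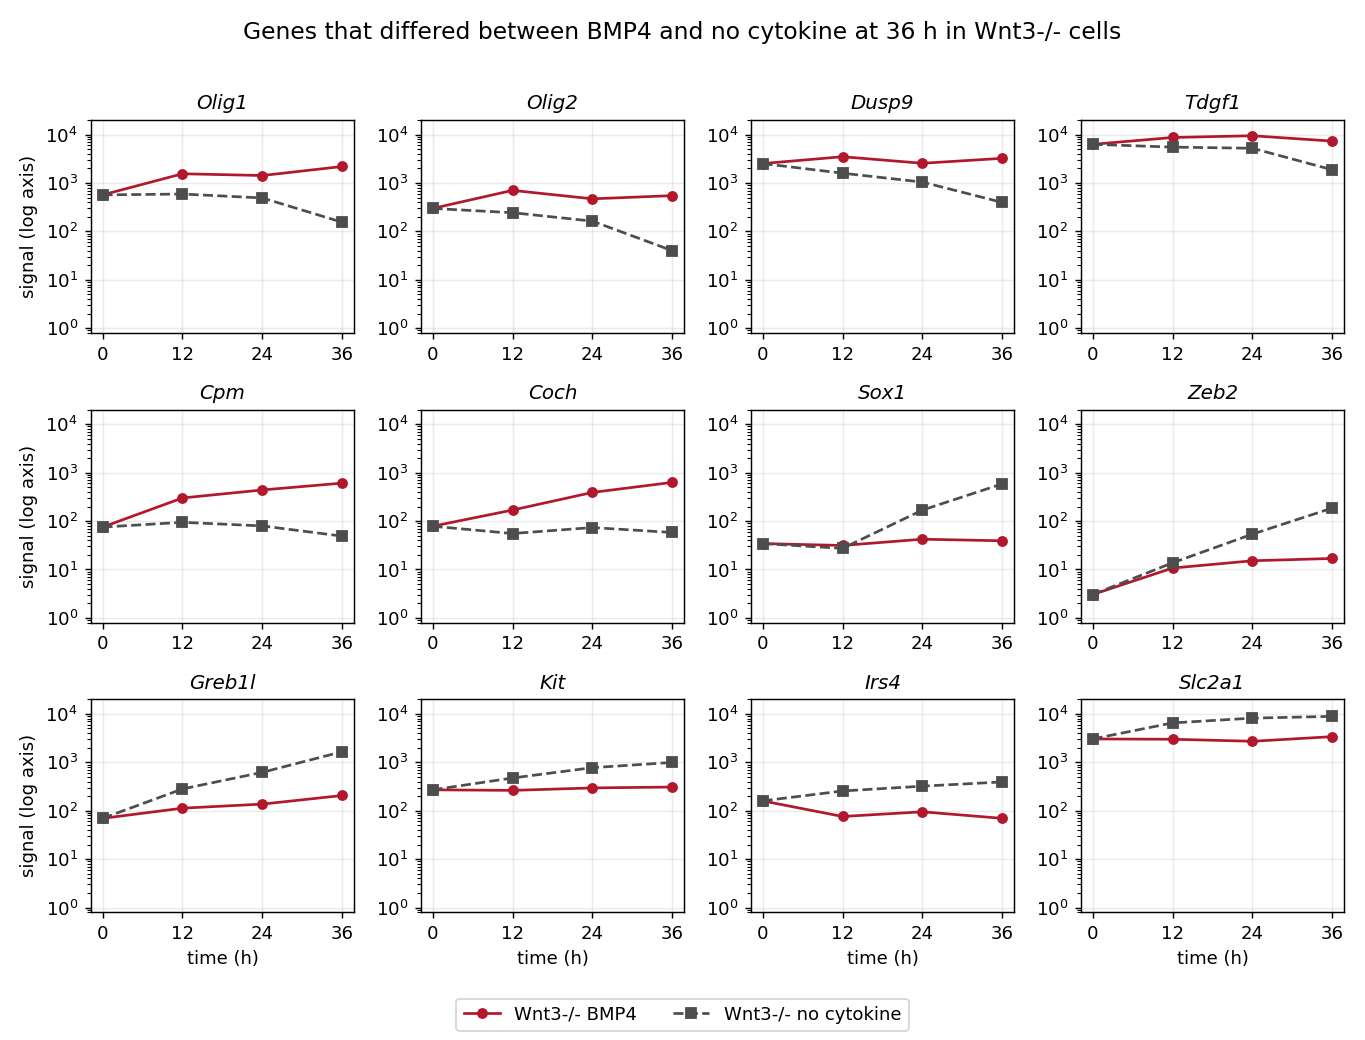
Signal (log axis) of 12 genes against time in h in KO cells with BMP4 (red circles) and KO cells without cytokine (grey squares), 1 array per point and a shared 0 h array. The first 6 genes were higher with BMP4 at 36 h and the last 6 lower. Sox1 and Zeb2 part after 12 h, and Kit and Slc2a1 stay level with BMP4.

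Over the 3 times together 74 genes differed, 32 higher (0.241% of genes tested) and 42 lower (0.317%). With values as deposited 28 were higher and 31 lower, and with median centring 22 and 44. The count was 17 without the untreated array of 24 h, 20 without the BMP4 array of 24 h and 27 without that of 36 h. It was 36 without all arrays of 12 h and 0 without all arrays of 24 h. Id1 (5.31 ± 0.43 log2, adjusted p = 7.7e-06), Id2 (3.74 ± 0.26 log2, adjusted p = 1.68e-06), Smad6 (1.61 ± 0.18 log2, adjusted p = 0.000561) and Greb1l (-2.11 ± 0.32 log2, adjusted p = 0.00551) were among them. So was Msx1 (1.58 ± 0.33 log2, adjusted p = 0.0413), whose call held in 5 of 21 alternatives. Trh, the thyrotropin-releasing hormone gene, read 315 at 0 h and 1675, 2106 and 1046 at 12, 24 and 36 h with BMP4, against 4012, 5955 and 3061 without cytokine. It was up from 0 h in both, and lower with BMP4 (-1.43 ± 0.31 log2, adjusted p = 0.0454).

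Whether the course itself differed from untreated cells was tested as the difference of the changes from 12 to 36 h. No gene was called higher (0%) and 1 gene lower (0.00754%), with 756 genes at an unadjusted p under 0.05 in limma. The called gene was Sox1, with -3.52 ± 0.37 log2 (adjusted p = 0.00785). Its call held in 12 of 19 alternatives, and it was not called without the 12 h or 36 h array of either condition. Msx2, at 3.02 ± 0.43 log2 (adjusted p = 0.11), had the next smallest p and did not pass, as did Zeb2 (-2.46 ± 0.41 log2, adjusted p = 0.323).

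Not every neural gene followed Sox1. Pax6, an eye and forebrain factor, read 35.5 at 0 h and 102, 153 and 219.8 at 12, 24 and 36 h with BMP4, against 73.0, 168 and 236 without cytokine. Sox2 read 1053 at 0 h and 3743, 4705 and 3956 at 12, 24 and 36 h with BMP4, against 2557, 4096 and 5442 without cytokine. Both went up in either condition and the courses overlapped. Sox3 read 2257 at 0 h and 1218, 560.3 and 402 at 12, 24 and 36 h with BMP4, against 1541, 1574 and 1046 without cytokine. Its difference at 36 h, -1.65 ± 0.37 log2 (adjusted p = 0.0791), did not pass. Of 15 measured neural ectoderm genes 1 was higher (Olig2) and 1 lower (Sox1) at 36 h, against 0.347% and 0.407% of all genes. Pax3, Zic1 and Six3 are not analysed here.

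Non-neural ectoderm genes gave no call against untreated cells. The simple keratin gene Krt8 read 556 at 0 h and 1017, 1361 and 2539 at 12, 24 and 36 h with BMP4, against 942, 1629 and 2320.2 without cytokine. Krt19 read 25.6 at 0 h and 58.1, 94.4 and 221 at 12, 24 and 36 h with BMP4, against 30.1, 89.3 and 134 without cytokine. Tfap2a read 81.6 at 0 h and 67.6, 81.6 and 128 at 12, 24 and 36 h with BMP4, against 67.6, 69.6 and 46.2 without cytokine, with its highest signal at 36 h with BMP4. None of 17 measured members differed at 12 h, at 36 h or over the 3 times.

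The comparison with WT cells asked how the BMP4 course differs in the line with Wnt3. The change from 12 to 36 h differed for 131 genes, 67 with the higher change in KO cells (0.505% of genes tested) and 64 with the lower (0.483%). The count was 3 with no filter on dim genes. It was 42 without the KO array of 24 h, 0 without that of 12 h or 36 h, 349 without the WT array of 12 h, 364 without that of 24 h and 0 without that of 36 h. Of 19 alternatives the call held in 14 for Mesp1, 13 for Utf1, 11 for Dkk1, 10 for Sox2 and 9 for Hoxb1.

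Of 13 measured streak and nascent mesoderm genes 3 had a lower change in KO cells than in WT cells (Mesp1, Cdh2 and Lhx1) and 10 did not pass. Of all genes 0.483% had a lower change. Mesp1, a factor of nascent mesoderm, read 64.9, 65.3 and 42.8 in KO cells with BMP4, against 86.8, 226 and 3984 in WT cells with BMP4, a difference in change of -5.66 ± 0.82 log2 (adjusted p = 0.0209). Evx1 read 18.6, 19.3 and 15.9 in KO cells, against 685, 1499 and 4039.6 in WT cells. Mixl1 read 8.94, 12.1 and 13.1 in KO cells, against 27.5, 359.5 and 1992 in WT cells, at -5.18 ± 1.26 log2 (adjusted p = 0.0785). All KO values lay below all WT values for Evx1 and Mixl1, and neither gene's difference in change passed. None of the 13 genes was called as changed in KO cells after 12 h. Against 0 h, Mesp1 passed 2-fold down in KO cells with BMP4 at 36 h, as it did in 4 of 7 alternatives. T and Snai2 are not analysed here.

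Of 17 measured WNT ligand and target genes 3 had a lower change in KO cells than in WT cells and 14 did not pass, where 0.483% of all genes had a lower change. Axin2, a feedback gene of beta-catenin, read 43.1, 31.3 and 40.8 in KO cells with BMP4, against 380.0, 526 and 904 in WT cells with BMP4. Sp5 read 31.1, 20.1 and 15.9 in KO cells, against 1024, 1924 and 2385 in WT cells. The KO values lay below the WT values at each time, and neither difference in change passed. Dkk1, a secreted WNT antagonist, read 39.9, 44.0 and 47.5 in KO cells, against 89.3, 236 and 2539 in WT cells, with a difference in change of -4.29 ± 0.81 log2 (adjusted p = 0.0392). The other 2 called were Wnt5b (-2.48 ± 0.40 log2, adjusted p = 0.0223) and Lef1 (-2.39 ± 0.50 log2, adjusted p = 0.0472). One member did rise in KO cells with BMP4: Sp8, at 8.57 at 0 h and 11.3, 26.4 and 72.5 at 12, 24 and 36 h, by 1.65 ± 0.30 log2 (adjusted p = 0.0201). Hoxb1, the most anterior of its cluster, read 20.7, 10.6 and 9.71 in KO cells, against 105, 149 and 3373 in WT cells.

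The signals of Id1 overlapped between the lines. Id1 read 5557, 8192 and 10156 in KO cells with BMP4, against 6339, 7383 and 9878 in WT cells with BMP4, and the changes after 12 h differed by 0.12 ± 0.51 log2 (adjusted p = 0.959). Msx1 and Msx2 had lower signals in KO cells at each time. Msx1 read 103, 149 and 292 in KO cells, against 488, 820.3 and 2369 in WT cells. Msx2 read 34.3, 78.2 and 491 in KO cells, against 251, 644 and 2149.8 in WT cells. Their changes after 12 h differed by -0.80 ± 0.62 log2 (adjusted p = 0.673) and 0.44 ± 0.43 log2 (adjusted p = 0.771), and neither passed. None of the 12 BMP-SMAD genes was called with a different change between the lines.

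Some epiblast genes kept higher signals in KO cells. Utf1, a chromatin factor of pluripotent cells, read 5997, 6039 and 4240.4 in KO cells with BMP4, against 3591, 1389 and 359.5 in WT cells with BMP4, with a difference in change of 2.86 ± 0.38 log2 (adjusted p = 0.017). Sox2 read 3743, 4705 and 3956 in KO cells, against 1399, 1235 and 388 in WT cells, at 2.00 ± 0.38 log2 (adjusted p = 0.0397). Otx2 read 596, 849 and 803 in KO cells, against 144, 101 and 20.4 in WT cells, and its difference, 2.46 ± 0.71 log2 (adjusted p = 0.118), did not pass. Cxcl12, a chemokine gene, read 588, 861 and 1269 in KO cells, against 588, 365 and 43.7 in WT cells, and had the highest positive difference named, 4.39 ± 0.63 log2 (adjusted p = 0.0209).

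**Figure D5:**
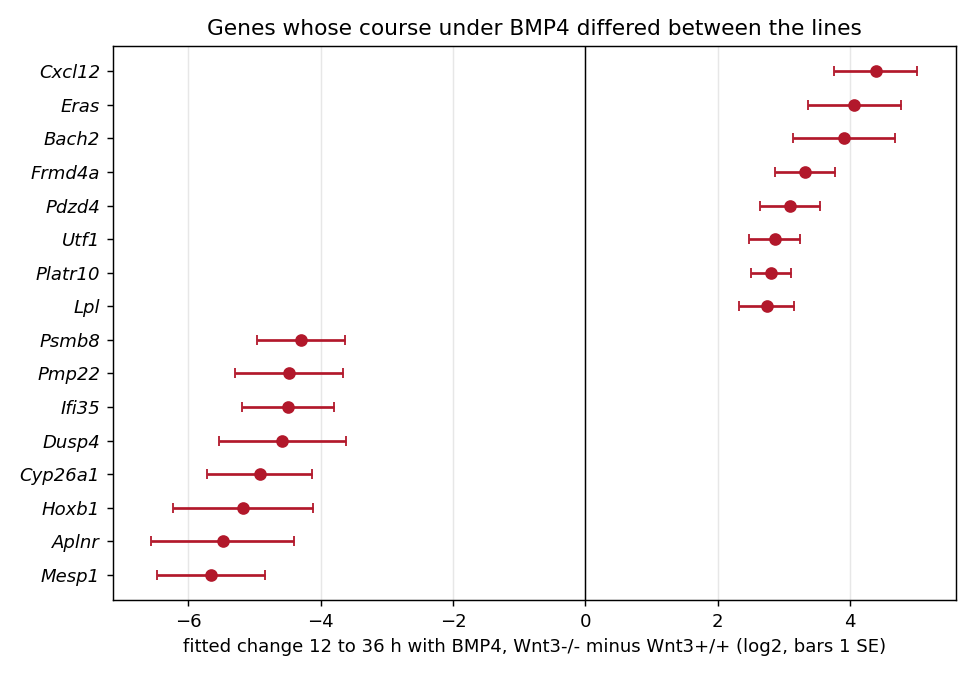
Fitted change from 12 to 36 h with BMP4, KO minus WT cells, in log2 units with 1 standard error, for the 8 genes with the highest and the 8 with the lowest difference among the 131 that passed, clone and number names left out. Values above 0 mean a higher change in KO cells. Mesp1 has the lowest value and Cxcl12 the highest.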

How the data were processed

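Samples were run on Affymetrix Mouse Genome arrays with amplified, biotin-labelled cDNA, per the labels' protocols. The authors deposited 1 linear intensity per probe set and array, with a floor of 1 that 2.93% of values reach. The sources used here do not give the method behind these values or any earlier normalization. Array medians lay between 36.8 and 41.4.

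In the platform annotation 34958 of the 45101 probe sets carry 1 gene symbol, 932 carry several and 9211 carry no symbol, and 34754 were matched. Values were taken as log2(signal + 16) and quantile-normalized. The probe set with the highest mean stood for a gene. Genes above the array median on at least 3 arrays were kept, 13256 of 18194. The signals printed are as deposited.

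Tests used limma 3.58.1 in R 4.3.3 with a variance trend and Benjamini-Hochberg adjustment over all genes, called at an adjusted p under 0.05. The fit held 21 arrays in 7 conditions, each with a line over time and a curvature shared by all (6 residual degrees of freedom). The mean over 3 times came from a model with condition and time as additive terms (12 residual degrees of freedom). The fit of the change from 12 to 36 h and of the difference at 36 h was run on simulated data. Those data held straight changes with independent noise, so they do not test whether the real courses are straight. For 6 other KO arrays title and description name different cytokines. They entered by title, and an alternative leaves them out.

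Named genes are members of 22 lists (268 of 327 genes kept), the 8 largest per class of first time and per direction of each test, and the 6 largest that came back. Members and lists were chosen with earlier results of these data known. Alternatives changed the scaling, offset, filter, probe set rule, variance prior, array weights, curvature, threshold and arrays used. Leaving out the arrays of the untreated and WT conditions was chosen after seeing the data. Figures were drawn with Python 3.11.15.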

Additional observations from a re-analysis of the deposited data

Results flagged for a closer look

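The genes below had a different change from 12 to 36 h with BMP4 in KO cells and in WT cells by limma's test of the difference itself, and are the 8 highest and 8 lowest of the 131 called, leaving out genes named by clone or number. With 1 array per condition and time each rests on fitted courses.

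Cxcl12 differed by 4.39 ± 0.63 log2 (adjusted p = 0.0209), Eras by 4.07 ± 0.70 log2 (adjusted p = 0.0304) and Bach2 by 3.91 ± 0.77 log2 (adjusted p = 0.041), all higher in KO cells. Eras, a Ras gene of embryonic stem cells, read 3281, 2226 and 2149.8 in KO cells at 12, 24 and 36 h, against 2436, 1218 and 79.9 in WT cells. Frmd4a differed by 3.32 ± 0.45 log2 (adjusted p = 0.0173), Pdzd4 by 3.10 ± 0.45 log2 (adjusted p = 0.0209) and Utf1 by 2.86 ± 0.38 log2 (adjusted p = 0.017). Platr10 differed by 2.81 ± 0.30 log2 (adjusted p = 0.00809) and the lipoprotein lipase gene Lpl by 2.74 ± 0.41 log2 (adjusted p = 0.0209). Lpl read 369.6, 719 and 760.1 in KO cells, against 365, 393 and 93.7 in WT cells.

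On the lower side Mesp1 differed by -5.66 ± 0.82 log2 (adjusted p = 0.0209), Aplnr by -5.48 ± 1.08 log2 (adjusted p = 0.041) and Hoxb1 by -5.18 ± 1.06 log2 (adjusted p = 0.0459). Aplnr, the apelin receptor gene, read 5.78, 12.9 and 19.7 in KO cells, against 8.82, 42.2 and 1965 in WT cells. Cyp26a1, which breaks down retinoic acid, differed by -4.92 ± 0.79 log2 (adjusted p = 0.0223) and read 59.7, 50.6 and 46.5 in KO cells, against 44.6, 99.7 and 1629 in WT cells. Dusp4 differed by -4.58 ± 0.96 log2 (adjusted p = 0.0477), Ifi35 by -4.49 ± 0.70 log2 (adjusted p = 0.0209), Pmp22 by -4.48 ± 0.82 log2 (adjusted p = 0.0357) and Psmb8, an immunoproteasome subunit gene, by -4.30 ± 0.66 log2 (adjusted p = 0.0209). In these 8 the WT array of 36 h stood highest, and without that array no gene was called.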

How the results depend on the processing

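No value past its threshold changed sign under any alternative run. Of changes at 36 h within 2-fold, S100a6 (-0.11 log2) gave 0.19 as deposited and 0.16 with median centring, and Mttp (-0.38) gave 0.14 with mean probe sets. Of 131 counts under alternatives 71 stayed within 1.5 times. Tests of named genes and counts by first time were tallied together. In that tally 573 tests lost their call, 26 counts by first time moved and 1630 entries of either kind stayed the same. The change from 12 to 36 h (185 genes) gave 335 as deposited, 330 with median centring, 104 with no filter, 104 with no curvature term, 96 when the 6 KO arrays whose labels disagree are dropped and 467 when the 3 arrays with the highest Gapdh ratios are. Its difference from untreated cells (1) gave 0 with an offset of 1, with mean probe sets and without those 3 arrays. Its difference from WT cells (131) gave 3 with no filter, 40 with mean probe sets, 37 with no variance trend, 199 with array weights, 31 without the 6 arrays and 4 with no curvature. BMP4 against no cytokine at 12 h (6) gave 2 as deposited, 2 with median centring, 3 with an offset of 1, 3 with no filter, 3 with mean probe sets and 2 without the 6 arrays. At 36 h (100) it gave 53 with no curvature. Over the 3 times (74) it gave 169 with array weights, 26 without the 6 arrays, 24 without the 3 arrays and 39 with a minimum difference of 1 log2. Genes first up (631) gave 991 as deposited, 360 with an offset of 64, 395 with mean probe sets, 1946 at 1.5-fold and 82 at 4-fold. Genes first down (481) gave 295 with an offset of 64, 1752 at 1.5-fold and 73 at 4-fold. Leaving out single arrays or times gave 0 to 136, 0 to 1, 0 to 364, 0 to 4, 1 to 92 and 0 to 86 genes in these 6 tests, in the order above. The cause was not tested. No paired analysis by replicate was possible because each line, condition and time has 1 array. The mean over 3 times compares the conditions matched by time. Dim signals lie near the floor and limit what could be called.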

Other observations

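In KO cells with BMP4 4.76% of all genes passed 2-fold up and 3.63% down. Of 7 measured endoderm genes none passed 2-fold in either direction and none passed a test. Of 6 measured trophoblast genes 2 passed 2-fold up (Gata3 and Hand1) and 1 down (Ascl2). Against untreated KO cells Ascl2 was higher with BMP4 over the 3 times, by 0.88 log2 (limma adjusted p = 0.0426). That call held in 5 of 21 alternatives. Of 13 lateral and extraembryonic mesoderm genes 1 passed up (Hand1). Of 10 Hox and caudal genes none passed 2-fold.

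Of 11 measured p53 response genes 1, Phlda3, was higher with BMP4 than without at 36 h (0.347% of all genes were). Phlda3 read 1859, 1859 and 1722 at 12, 24 and 36 h, against 1541, 1287 and 849 without cytokine (0.96 ± 0.16 log2, adjusted p = 0.0136). The rate-limiting liver-type phosphofructokinase gene Pfkl was higher at 36 h as well (0.72 ± 0.12 log2, adjusted p = 0.0166). Of 10 Notch pathway genes 2 passed 2-fold up and 2 down, and none passed a test.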
